A study of Mus musculus with 25 samples.

Results

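The genes of the subcortical maternal complex and their oocyte-expressed Nlrp relatives were measured in late 2-cell mouse embryos. The set was listed by gene name, with earlier results of these data known, and holds 9 genes, which were Nlrp5, Ooep, Tle6, Khdc3, Padi6, Zbed3, Nlrp2, Nlrp14 and Nlrp4f. Each symbol matched 1 of the 55375 gene rows of the count table. All 9 lay on autosomes and were among the 25794 autosomal genes tested, which averaged 1 read or more per library.

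The study compared embryos made by in vitro fertilization (IVF) with cloned embryos made by somatic cell nuclear transfer (SCNT), and asked whether agents that lower methylation of histone H3 lysine 9 alter the transcriptome of the clones. RNA-seq was performed on 25 libraries of 11 groups, each library made from a pool of 5 to 10 wild-type embryos collected 28 to 29 h after insemination or activation. The 4 IVF libraries came from C57BL/6N oocytes, taken from females of 4 to 20 weeks by the labels, and sperm of adult DBA2 males. The study's methods give a narrower age range. All SCNT libraries came from enucleated BDF1 (C57BL/6N x DBA2) oocytes that received BDF1 cumulus nuclei. The SCNT control and the embryos injected with Kdm3a or Kdm4d mRNA (10 pL of 1500 ng/μL, at 5 to 6 h) had 2 libraries each and were made with cytochalasin B. This inhibitor of actin polymerization was present during activation by strontium chloride. The other 7 SCNT groups were made with latrunculin A and were an untreated control, trichostatin A (TSA, a histone deacetylase inhibitor, 25 nM for 8 h), the inhibitors of the methyltransferase G9a RK-701 (3 libraries) or A366 alone (1 μM for 24 h), and TSA together with 1 of the inhibitors RK-701, A366 and UNC0638. Each of these 7 groups but RK-701 alone had 2 libraries. The study describes the IVF embryos as BDF1 in background, as the donor nuclei are. IVF embryos thus differ from every SCNT group in oocyte strain and in sex, since cumulus nuclei are female. These differences cannot be told apart from nuclear transfer in any comparison with IVF. Nothing states that libraries of a group came from separate cultures, so the p-values measure the spread between these pools. In such pools, fewer embryos with a transcript and less transcript in each embryo cannot be told apart.

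Libraries held between 6662727 and 21188688 reads on genes, with a median of 13994840. The injected messages marked their groups. Kdm3a stood at 3420 and 3801 CPM (counts scaled to the size of the library, with TMM factors) in its 2 injected libraries and between 119 and 293 CPM in the other 23, and Kdm4d at 13790 and 20371 CPM against 0.786 to 5.57 CPM. Of 8 markers of the 2-cell stage, 7 were in the table and none of these was at 0 throughout a group. The 2 latrunculin A controls stood apart from each other in Nlrp5 and Zbed3, so their differences from the treated groups are given with and without each of them for these genes. The 12 cumulus cell markers summed to between 73.0 and 250.1 TPM (counts scaled to gene length and library size) per library. They summed to 73.0 to 99.3 TPM in IVF and 188 to 250.1 TPM in TSA libraries. Between 0 and 4 of the 12 were at 0 throughout a group, with 4 in IVF. Ptx3 was at 0 in every library of 8 groups, IVF among them.

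The subcortical maternal complex is a protein assembly that lies under the plasma membrane of the oocyte and of the cells of the cleaving embryo. Its messages are made while the oocyte grows and are stored, and the bulk of the stored messages is cleared around the time the embryonic genome is switched on. NLRP5, OOEP, TLE6 and KHDC3 are core members, PADI6 and ZBED3 join the complex, and loss of several of these proteins from the oocyte stops cleavage. NLRP2, NLRP14 and NLRP4F are relatives of NLRP5 that are made chiefly in germ cells.

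The 9 genes are scattered over the genome (mm10 coordinates). Nlrp2 lies on the minus strand at chr7:5298547-5351035, Nlrp5 on the plus strand at chr7:23385889-23441922 and Nlrp14 on the plus strand at chr7:107166990-107198102. Khdc3 lies on the plus strand at chr9:73101836-73104438 and Ooep on the minus strand at chr9:78376109-78378725. Nlrp4f lies on the minus strand at chr13:65177111-65205977 and Zbed3 on the plus strand at chr13:95323612-95337841. Tle6 lies on the minus strand at chr10:81590904-81601073 and Padi6 on the minus strand at chr4:140727355-140742643. No exon of the set overlapped a transposable element copy in the annotation, whereas Khdc3 shares 790 of its 2050 exonic bases with Gm20509 on the same strand, and Nlrp2 shares 105 of 3509 with Gm18757 on the other strand, so their reads in those stretches cannot be assigned to either gene.

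The 250 bases before the start of transcription were available from RefSeq (GRCm38.p6) for 8 of the 9 genes, all but Nlrp14. They are shown for Nlrp5, Nlrp4f and Nlrp2, the genes whose levels set RK-701 embryos apart below. They are chr7:23385639-23385888 on the plus strand, chr13:65205717-65205966 on the minus strand, whose start lies 261 bases inside the gene as the count table has it, and chr7:5351036-5351285 on the minus strand. Capitals mark E-boxes, the letters CANNTG, which read the same on both strands and are bound by factors such as the oocyte regulator FIGLA.
Nlrp5: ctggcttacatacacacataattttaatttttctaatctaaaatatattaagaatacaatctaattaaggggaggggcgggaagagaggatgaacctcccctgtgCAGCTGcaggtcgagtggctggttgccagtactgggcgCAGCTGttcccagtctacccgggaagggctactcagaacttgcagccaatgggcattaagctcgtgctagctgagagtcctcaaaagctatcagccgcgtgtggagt
Nlrp4f: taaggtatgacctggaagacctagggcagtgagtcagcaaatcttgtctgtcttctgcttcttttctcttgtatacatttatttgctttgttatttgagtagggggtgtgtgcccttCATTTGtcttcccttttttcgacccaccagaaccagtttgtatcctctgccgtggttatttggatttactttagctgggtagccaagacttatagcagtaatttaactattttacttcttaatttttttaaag
Nlrp2: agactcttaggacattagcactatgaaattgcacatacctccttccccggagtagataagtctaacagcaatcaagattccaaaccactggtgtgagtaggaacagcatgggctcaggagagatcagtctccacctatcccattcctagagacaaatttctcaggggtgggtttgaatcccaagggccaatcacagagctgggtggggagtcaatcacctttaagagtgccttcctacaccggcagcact
The Nlrp5 promoter held 2 E-boxes, that of Nlrp4f 1 and that of Nlrp2 0. Of 32851 mouse promoters of this length, 66.2% held at least 1 E-box and 31.8% at least 2. None of the 3 sequences shown held TAATTG on either strand, the letters bound by the oocyte factor NOBOX, or TATAAA on either strand, which 7.17% and 12.4% of all promoters held. RefSeq also lists an Nlrp5 start 18213 bases further into the gene, whose promoter is not shown and held 2 E-boxes and TATAAA.

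Corrected for transcript length, the genes of the set differed widely in level. Zbed3 was the most abundant, with 328 to 2994 TPM and a median of 758 TPM over the 25 libraries. Nlrp14 followed with a median of 153 TPM, then Nlrp5 with 82.4, Nlrp4f with 76.4 and Padi6 with 70.9 TPM. Ooep, Tle6 and Nlrp2 had medians of 31.6, 31.1 and 16.3 TPM. Khdc3 had the fewest counted reads, at 0 to 4.73 TPM and 0 to 44 reads per library, so differences in Khdc3 rest on few reads. Reads in the 790 of its 2050 exonic bases shared with Gm20509 were not counted, while its TPM uses the full length. How far this lowers its level was not tested. The plot of levels by library shows every value on the CPM scale used in the rest of the text.

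**Figure D1:**
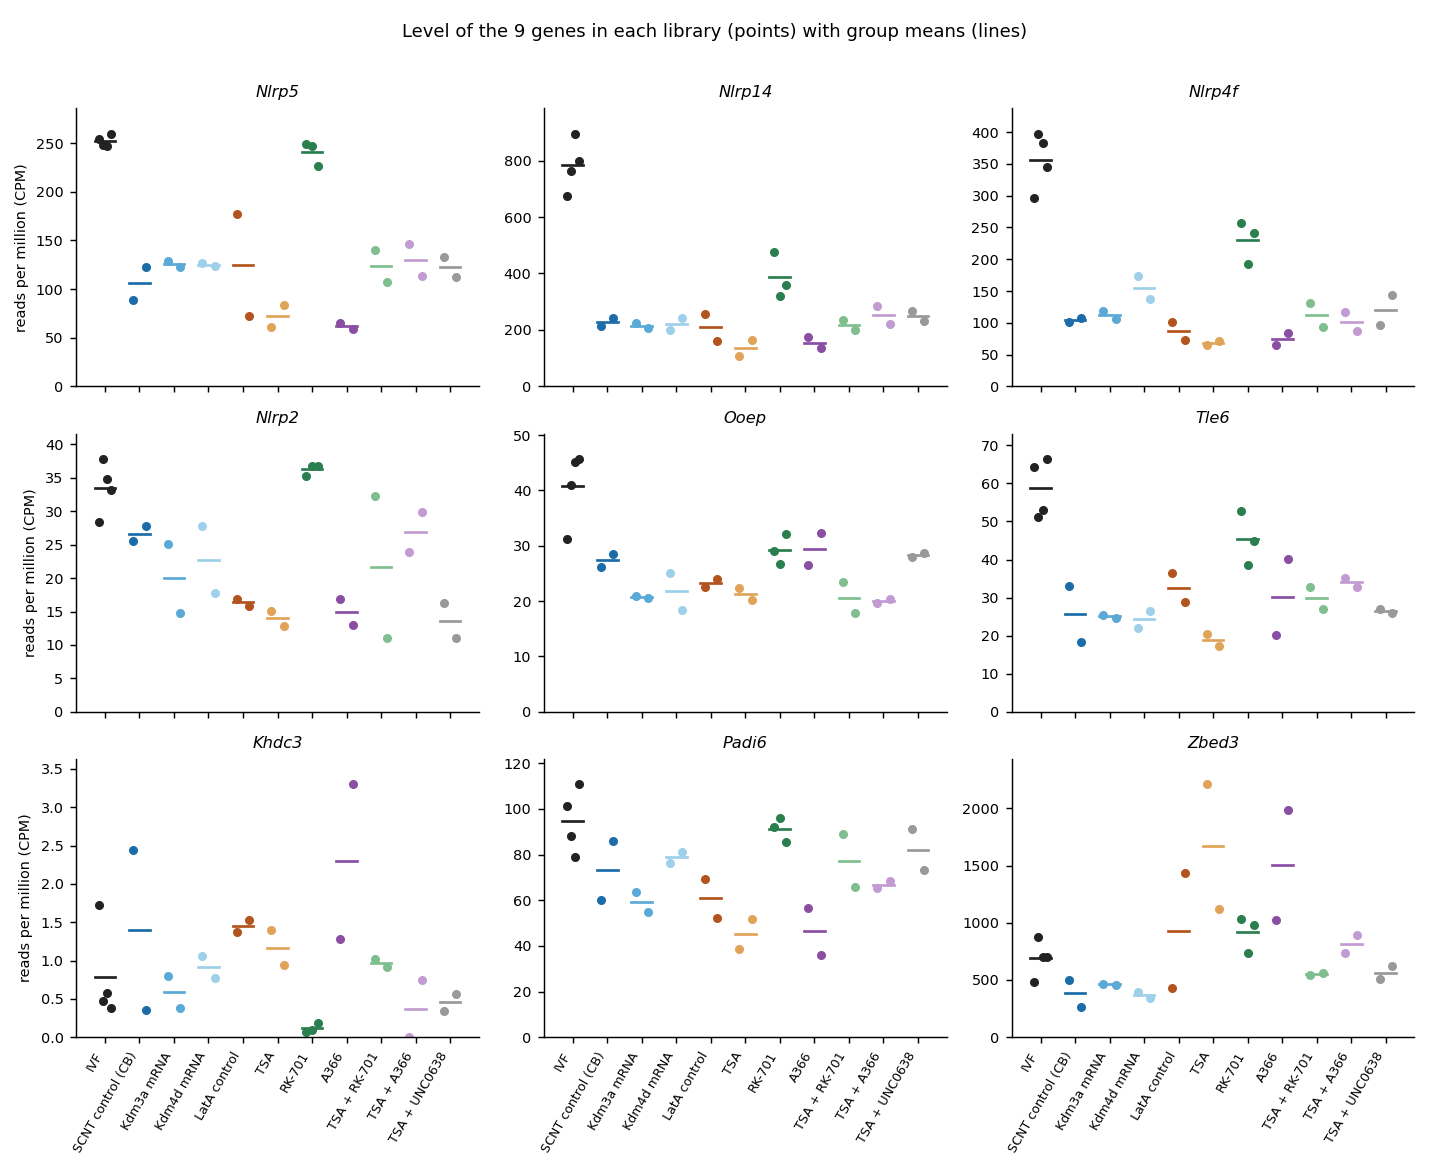
Levels of the 9 genes in each of the 25 libraries, in CPM on linear axes that start at 0, 1 panel per gene. Each point is 1 library, lines are group means, and groups run from IVF through the untreated and treated SCNT groups (CB, cytochalasin B; LatA, latrunculin A). For Nlrp5, the 4 IVF and the 3 RK-701 libraries lie between 226 and 259.7 CPM, and the other 18 lie between 58.6 and 177 CPM.

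Most SCNT groups held less Nlrp14, Nlrp4f and Nlrp5 RNA than IVF embryos. In edgeR's quasi-likelihood test with Benjamini-Hochberg adjustment over all tested genes, with adjusted p under 0.05 and a fold over 2 taken as a call, 4 of the 9 genes were lower and 0 higher in SCNT control than in IVF embryos, namely Nlrp5, Tle6, Nlrp14 and Nlrp4f. Of all tested genes, 6.87% were lower and 8.04% higher by the same rule. The latrunculin A control also had 4 lower genes, Nlrp5, Nlrp2, Nlrp14 and Nlrp4f, against 6.58% of all genes lower and 8.67% higher. Without the fold limit, 7 of the 9 were lower there, against 10.2% of all genes. Scaling by library totals instead of TMM raised the median change of all genes by 0.26 in the SCNT control and 0.28 in the latrunculin A control on the log2 scale, turned 2074 higher and 1771 lower genes into 3078 and 1164 in the former and 2237 and 1696 into 3458 and 1120 in the latter, and left 2 lower genes of the set in each. Median log2 fold changes were -0.86 for the 9 genes and 0.01 for all genes in the SCNT control.

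The count of lower genes varied between treatments. It was 4 in Kdm3a and 4 in Kdm4d embryos, where 6.25% and 4.45% of all genes were lower. It was 6 in TSA embryos (7.15% of all genes), 5 in A366 embryos (7.21%) and 1, Nlrp14, in RK-701 embryos (5.27%). With TSA added it was 3 for RK-701 (5.94%), 3 for A366 (5.39%) and 5 for UNC0638 (4.35%). Higher than IVF was Zbed3 alone, in TSA embryos, where 7.66% of all genes were higher, and in A366 embryos, where 7.89% were. The set had 0 higher genes in Kdm3a, Kdm4d and RK-701 embryos, where 6.47%, 4.81% and 6.53% of all genes were higher, and 0 with TSA plus RK-701, A366 or UNC0638, where 6.21%, 5.46% and 5.47% were. These 10 comparisons share the IVF libraries and are given side by side.

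**Figure D2:**
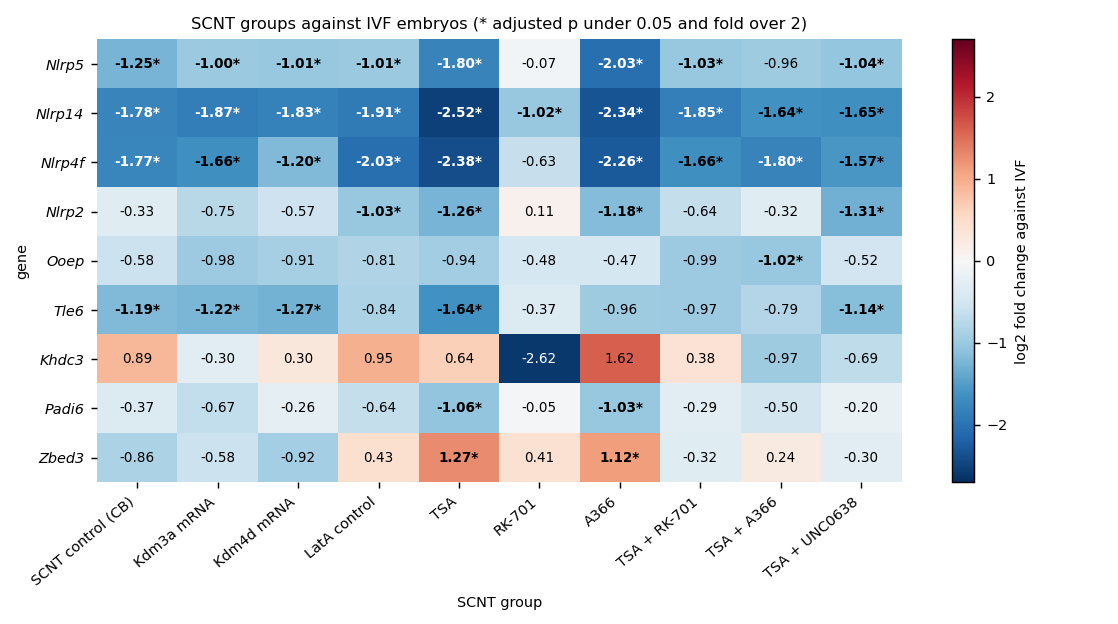
Log2 fold change of each of the 9 genes (rows) against IVF embryos in the 10 SCNT groups (columns), from the model over all 25 libraries. Blue is lower and red higher than IVF, and an asterisk marks adjusted p under 0.05 with a fold over 2. Nlrp14, Nlrp4f, Nlrp5, Ooep, Tle6 and Padi6 are below 0 in every group. RK-701 has the values nearest to 0 for Nlrp5 (-0.07), Nlrp14 (-1.02) and Nlrp4f (-0.63).

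Nlrp14, a germ cell member of the family, had the highest level of the 4 Nlrp genes of the set. IVF libraries stood at 674, 762, 895 and 799.7 CPM. SCNT controls stood at 216 and 241 CPM, latrunculin A controls at 255 and 162 CPM, and RK-701 libraries at 476, 322 and 360.1 CPM. IVF, RK-701 and all other libraries formed 3 ranges without overlap, the others lying between 109 and 284 CPM. The level was 3.43-fold lower in SCNT control than in IVF embryos (log2 -1.78, SE 0.21, adjusted p = 7.77e-07), 3.75-fold lower in the latrunculin A control, and 5.73-fold lower in TSA embryos. In RK-701 embryos it was 2.03-fold lower (adjusted p = 0.000106), a fold that slipped to under 2 when IVF replicate 3, RK-701 replicate 2 or RK-701 replicate 3 was left out (log2 -0.95, -0.90 and -0.97).

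Nlrp4f, which lies apart from the Nlrp genes of chromosome 7, also had its highest levels in IVF and then RK-701 embryos. IVF libraries held 297, 398, 383 and 345 CPM. RK-701 libraries held 257, 192 and 241 CPM, and SCNT controls 101 and 108 CPM. The latrunculin A controls held 102 and 72.6 CPM, and TSA and A366 libraries between 64.9 and 83.4 CPM. IVF and RK-701 again stood clear of each other and of all other libraries, the nearest being Kdm4d at 173 and 137 CPM. Nlrp4f was called lower than IVF in 9 of 10 groups, from 2.29-fold in Kdm4d to 5.22-fold in TSA embryos. RK-701 was the exception, at log2 -0.63 (SE 0.17, adjusted p = 0.0102), which is under the fold limit. For both genes, the calls in the other 9 groups held when each library was left out in turn.

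Nlrp5, the founding member of the complex also known as Mater, showed a narrow range in IVF embryos, at 254, 248, 247 and 259.7 CPM. RK-701 libraries lay within or just below it, at 249, 247 and 226 CPM. SCNT controls lay at 88.8 and 123 CPM, Kdm3a libraries at 129 and 123 CPM, and Kdm4d libraries at 127 and 123 CPM. IVF and RK-701 overlapped with each other and with no other library. The change from IVF was -0.07 for RK-701 (95% interval -0.45 to 0.31, adjusted p = 0.871) and -1.25 for SCNT control (SE 0.23, adjusted p = 0.000266). The lowest group means were those of A366, with libraries at 65.1 and 58.6 CPM, and TSA, with libraries at 61.5 and 83.5 CPM, which were 4.08-fold (adjusted p = 9.81e-07) and 3.48-fold (adjusted p = 4.67e-06) lower than IVF. Nlrp5 was called in 8 groups, and in 5 of them, Kdm3a, Kdm4d, latrunculin A control, TSA with RK-701 and TSA with UNC0638, the fold was 2.01 to 2.05 and the call was lost on leaving out at least 1 library.

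The 2 latrunculin A controls differed from each other in Nlrp5, at 177 and 72.9 CPM. Their mean was 125 CPM ± 73.5 (SD, n = 2), which was 2.02-fold lower than IVF. Without replicate 1 the log2 change was -1.79 (adjusted p = 3.68e-06), and without replicate 2 it was -0.51 (adjusted p = 0.114). The direction held and the size did not.

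Nlrp2, another oocyte relative that takes part in the maternal control of early development, was low in all groups. IVF libraries held 28.4, 37.8, 34.8 and 33.2 CPM, and RK-701 libraries 35.4, 36.8 and 36.8 CPM. Latrunculin A controls held 16.9 and 15.9 CPM, TSA 15.1 and 12.8 CPM, and A366 16.8 and 13.0 CPM. RK-701 lay inside the IVF range while these 3 groups lay wholly below it. Calls against IVF were made in the latrunculin A control (log2 -1.03, SE 0.31, adjusted p = 0.0183), in TSA (-1.26), A366 (-1.18) and TSA with UNC0638 (-1.31), and each was lost when a library was left out, for the control on leaving out IVF replicate 2 or either of its own libraries. The SCNT controls, at 25.5 and 27.8 CPM, were 1.26-fold below IVF (adjusted p = 0.473).

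Tle6, a corepressor-like core member of the complex, was at 64.3, 51.3, 53.0 and 66.4 CPM in IVF and at 33.1 and 18.4 CPM in SCNT control embryos. No SCNT library outside RK-701, at 52.7, 38.6 and 44.9 CPM, exceeded 40.1 CPM. Tle6 was called lower than IVF in SCNT control (2.28-fold, adjusted p = 0.00136), Kdm3a, Kdm4d, TSA (3.11-fold) and TSA with UNC0638. In SCNT control the call was lost without replicate 2 (log2 -0.82, adjusted p = 0.0739). RK-701 differed from IVF by -0.37 (SE 0.22, adjusted p = 0.264).

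Ooep, an RNA-binding-fold core member, changed less. It was at 31.3, 40.9, 45.1 and 45.7 CPM in IVF and between 17.8 and 32.3 CPM in all SCNT libraries. The IVF range was met by the highest SCNT libraries, and among SCNT groups only TSA with A366 passed the fold limit (2.03-fold lower, adjusted p = 0.00143), and that call was lost without IVF replicate 3, IVF replicate 4 or TSA with A366 replicate 1. In 5 further groups, which were Kdm3a, Kdm4d, latrunculin A control, TSA and TSA with RK-701, Ooep passed the adjusted p and not the fold. A366 and RK-701 embryos had like means of 29.4 ± 4.13 (SD, n = 2) and 29.3 ± 2.68 CPM (SD, n = 3).

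Padi6, a member of the arginine deiminase family that is needed for the cytoplasmic lattices of the oocyte, was at 101, 88.3, 78.9 and 111 CPM in IVF and at 92.1, 96.2 and 85.7 CPM in RK-701 embryos. SCNT controls held 60.3 and 86.1 CPM, latrunculin A controls 69.4 and 52.4 CPM. A366 libraries, at 56.7 and 36.2 CPM, and TSA libraries, at 38.6 and 52.0 CPM, had the lowest means, and these were the groups in which Padi6 was called lower than IVF (2.04-fold, adjusted p = 0.000862, and 2.09-fold, adjusted p = 0.00062). Both calls were lost on leaving out IVF replicate 4 or 1 library of the group. Khdc3 was called in no comparison with IVF, with 5 to 10 reads in each IVF library and 0 to 44 reads in SCNT libraries.

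Zbed3, a zinc finger protein that joins the complex and also acts in Wnt signaling, was the only gene of the set called higher than IVF in any group. IVF libraries held 484, 880.1, 705 and 699 CPM. TSA libraries held 2211 and 1124 CPM and A366 libraries 1024 and 1982 CPM, all above IVF. Latrunculin A controls held 429 and 1434 CPM, a range that covers IVF, and Zbed3 was called higher than IVF without replicate 1 (1.05, adjusted p = 0.023) and differed by -0.69 without replicate 2. Zbed3 was 2.41-fold higher than IVF in TSA (log2 1.27, SE 0.35, adjusted p = 0.0119) and 2.17-fold higher in A366 embryos (adjusted p = 0.0257). The change was 0.70 without TSA replicate 1 and 0.57 without A366 replicate 2, and neither then passed. The SCNT control, at 498 and 268 CPM, differed from IVF by -0.86 (SE 0.38, adjusted p = 0.116).

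Whether a treatment moved the genes was tested against the untreated clones made with the same agent. RK-701 was the treatment with calls. Of the 9 genes, 2 were higher than in the latrunculin A control, Nlrp4f (2.63-fold, log2 1.40, SE 0.22, adjusted p = 0.000365) and Nlrp2 (2.21-fold, log2 1.14, SE 0.33, adjusted p = 0.0367), where 1.73% of all genes were higher and 1.61% lower. The untreated clones made with cytochalasin B held 25.5 and 27.8 CPM of Nlrp2, between the latrunculin A controls and RK-701. Nlrp5 (log2 0.94, SE 0.24, adjusted p = 0.0179) and Nlrp14 (log2 0.89, SE 0.21, adjusted p = 0.0126) passed the adjusted p and missed the fold limit, so that 4 of the 9 passed the adjusted p alone, against 2.72% of all genes. Padi6 differed by 0.58 (adjusted p = 0.124), Tle6 by 0.47 (adjusted p = 0.324) and Ooep by 0.33 (adjusted p = 0.431).

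All 3 RK-701 libraries lay above both latrunculin A controls in each of the 4 Nlrp genes. With so few libraries, genes that do not differ can also separate, and the share of all genes that did is not given here. The Nlrp4f call held on leaving out each library in turn. The Nlrp2 call was lost on leaving out any of the 5 libraries compared (adjusted p 0.0702 to 0.245), with the fold between 2.14 and 2.28. The size of the Nlrp5 and Nlrp14 changes rested on which control was kept. Without latrunculin A control replicate 1, Nlrp5 (log2 1.72, adjusted p = 4.13e-05) and Nlrp14 (log2 1.25, adjusted p = 0.00152) were called, and without replicate 2 they came to 0.44 (adjusted p = 0.399) and 0.60 (adjusted p = 0.278) and did not pass. Zbed3 differed by -0.64 (adjusted p = 0.268) without replicate 1 and 1.1 (adjusted p = 0.197) without replicate 2. Khdc3 had 1, 1 and 2 reads in RK-701 and 23 and 15 reads in the control libraries, a difference that was not called (adjusted p = 0.0561) and was called lower by DESeq2. The cumulus markers summed to 73.1 to 83.8 TPM in RK-701 and 100.9 to 117 TPM in control libraries, with 2 and 1 of 12 at 0, and Ptx3 at 0 in both. Of the 4 oocyte markers Zp3, Gdf9, Bmp15 and Mos, the 3 on autosomes summed to 281 to 344 TPM and 205 to 244 TPM. The part of either list in the result was not tested.

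**Figure D3:**
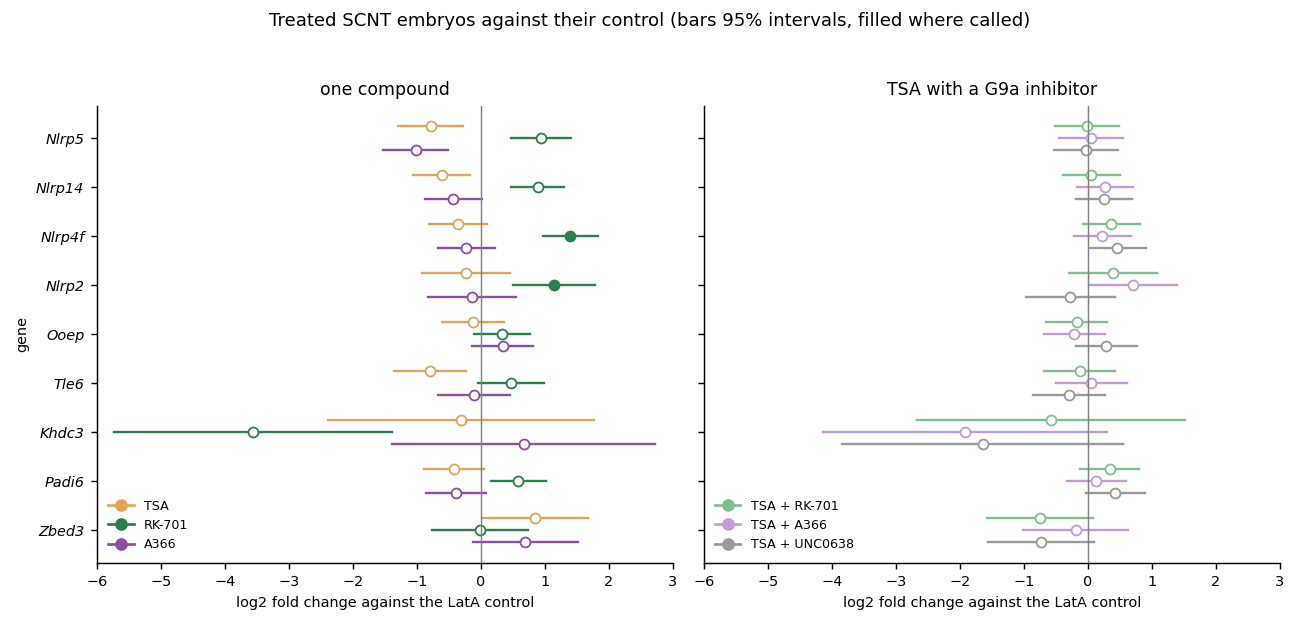
Log2 fold change of the 9 genes against the latrunculin A control, for TSA, RK-701 and A366 alone (left) and for the 3 combinations of TSA with an inhibitor (right). Points are fitted changes, bars their 95% intervals, and filled points are calls. The only filled points are those of RK-701 alone, at 1.40 for Nlrp4f and 1.14 for Nlrp2.

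None of the other 7 treatments gave a call against its own control by edgeR. In Kdm3a and Kdm4d embryos, where 2.37% and 2.11% of all genes were higher and 1.78% and 1.04% lower than in SCNT control, 0 and 1 of the 9 genes had an unadjusted p under 0.05 and DESeq2 called 0 in each. The 1 gene was Nlrp4f in Kdm4d embryos (log2 0.57, 95% interval 0.12 to 1.02, adjusted p = 0.16). Nlrp5 differed from SCNT control by 0.25 in Kdm3a embryos (95% interval -0.25 to 0.75) and 0.24 in Kdm4d embryos (-0.26 to 0.74). Kdm4d and Kdm3a embryos gave no call against each other in the 9 genes by edgeR, with 0 at an unadjusted p under 0.05, and 0.155% of all genes were higher and 0.19% lower.

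TSA alone gave 0 calls, with 3 of the 9 genes at an unadjusted p under 0.05 and 0 called by DESeq2, where 0.167% of all genes were higher and 0.167% lower. Nlrp5 differed from the latrunculin A control by -0.79 (adjusted p = 0.167), Tle6 by -0.79 and Nlrp14 by -0.61. Without latrunculin A control replicate 2, Nlrp5 was called lower (-1.28, adjusted p = 0.00152) and Zbed3 higher (1.96, adjusted p = 0.00916), whereas without replicate 1 they differed by -0.01 and 0.22. With both untreated controls as the reference, Zbed3 was also called higher (1.48, adjusted p = 0.0233). A366 alone gave 0 calls, with 1 gene at an unadjusted p under 0.05, where 0.0814% of all genes were higher and 0.0388% lower. That gene was Nlrp5 at -1.02 (SE 0.26, adjusted p = 0.0926), which DESeq2 called lower. It was called by edgeR without latrunculin A control replicate 2 (-1.52) and came to -0.24 (adjusted p = 0.768) without replicate 1. Zbed3 was called higher in A366 embryos without replicate 2 (1.81, adjusted p = 0.0139) and differed by 0.07 without replicate 1. The combinations of TSA with RK-701, A366 and UNC0638 gave 0 calls and 0 genes at an unadjusted p under 0.05, and 0 calls by DESeq2, although 3.73%, 3.09% and 3.69% of all genes were higher and 2.48%, 2.87% and 2.5% lower. In them Nlrp5 differed from the latrunculin A control by -0.02 (95% interval -0.52 to 0.48), 0.05 (-0.45 to 0.55) and -0.03 (-0.53 to 0.47). These values came to 0.76, 0.83 and 0.75 without control replicate 1 and -0.52, -0.45 and -0.53 without replicate 2, none of them a call. Zbed3 was called lower without control replicate 1 with TSA plus RK-701 (-1.37, adjusted p = 0.0145) and TSA plus UNC0638 (-1.35, adjusted p = 0.0159), and differed by 0.37 and 0.39 without replicate 2. With TSA plus A366 it differed by -0.81 and 0.93, without a call. The 2 untreated controls gave no call against each other in the 9 genes, where 0.00388% of all genes were higher and 0.00775% lower in the latrunculin A control, with 1 at an unadjusted p under 0.05, which was Zbed3 (log2 1.28, adjusted p = 0.466), and 0 called by DESeq2. Without latrunculin A control replicate 1 Zbed3 was called higher in that control (1.91, adjusted p = 0.0194), and without replicate 2 it differed by 0.16. Nlrp5 differed by -0.54 and 0.74 and was not called.

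The G9a inhibitors RK-701 and A366 were compared at the same dose and time. A366 embryos held less of all 4 Nlrp genes than RK-701 embryos. Of the 9 genes, 4 were lower and 1 higher, where 4.1% of all genes were lower and 3.95% higher. Nlrp5 was 3.89-fold lower (log2 -1.96, SE 0.25, adjusted p = 7.75e-06), at 65.1 and 58.6 CPM against 249, 247 and 226 CPM. Nlrp4f was 3.09-fold lower (adjusted p = 1.4e-05), Nlrp14 2.49-fold lower (adjusted p = 0.00014) and Nlrp2 2.44-fold lower (adjusted p = 0.00884). The groups did not overlap in any of the 4 genes. With so few libraries, genes that do not differ can also separate, and the share of all genes that did is not given here. The calls of Nlrp5, Nlrp4f and Nlrp14 held on leaving out each library in turn, and that of Nlrp2 was lost without A366 replicate 2 (log2 -1.11, adjusted p = 0.144).

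Of the other 5 genes, 1 was called between these inhibitors. Padi6 was 1.97-fold lower in A366 embryos (adjusted p = 0.00356), just under the fold limit. Ooep differed by 0.01 (95% interval -0.43 to 0.44), Tle6 by -0.59 (adjusted p = 0.154) and Zbed3 by 0.71 (adjusted p = 0.248). Khdc3 was called higher in A366 embryos (log2 4.23, SE 1.11, adjusted p = 0.00999), on 58 reads against 4, which gives a ratio of 21.7 per read sequenced (95% counting interval 8.03 to 82.3). It was lost without A366 replicate 2 (log2 3.40, adjusted p = 0.132) or RK-701 replicate 1. The cumulus markers summed to 145 to 151 TPM in A366 and 73.1 to 83.8 TPM in RK-701 libraries, with 0 and 2 of 12 at 0. The 3 autosomal oocyte markers summed to 213 to 239 TPM and 281 to 344 TPM. The part of either list in the result was not tested.

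With TSA added, no difference between the inhibitors was called. Nlrp5 stood at 146 and 114 CPM with A366, 140.3 and 107 CPM with RK-701, and 133 and 112 CPM with UNC0638. The 3 groups overlapped. The differences were 0.07 for A366 against RK-701 (95% interval -0.43 to 0.57), -0.01 for UNC0638 against RK-701 (-0.51 to 0.49) and -0.08 for UNC0638 against A366 (-0.58 to 0.42). None of the 9 genes was called in these 3 comparisons by edgeR or DESeq2, with 0, 0 and 1 at an unadjusted p under 0.05, where 0% and 0%, 0.686% and 0.306%, and 0.756% and 0.12% of all genes were higher and lower. That gene was Nlrp2, in UNC0638 against A366 (-0.99, 95% interval -1.68 to -0.30, adjusted p = 0.261). DESeq2 gave no adjusted p for Khdc3 in 2 of the 3.

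Whether TSA and an inhibitor together differed from the sum of each alone was tested as an interaction. For A366, 2 of the 9 genes were above the sum, Nlrp5 (log2 1.86, SE 0.37, adjusted p = 0.0109) and Nlrp14 (log2 1.31, SE 0.32, adjusted p = 0.0316), where 1.32% of all genes were above and 0.554% below. Both calls were lost without latrunculin A control replicate 1, TSA replicate 1, A366 replicate 2 or TSA with A366 replicate 1 (Nlrp5 1.08 to 1.78, Nlrp14 0.95 to 1.15). For RK-701, 0 were called, with 3 at an unadjusted p under 0.05 and 0 called by DESeq2, where 1.45% of all genes were above and 0.775% below the sum. Nlrp5 had an interaction of -0.18 (95% interval -0.86 to 0.50) there, and -0.96 and 0.32 without latrunculin A control replicate 1 and 2. Without control replicate 2, Zbed3 was called below the sum for RK-701 (-2.69, adjusted p = 0.00412) and A366 (-2.84, adjusted p = 0.00116), and without replicate 1 it came to -0.95 and -1.1 and was not called. Padi6 (1.14) and Nlrp4f (1.03) were called above the sum for A366 without control replicate 2.

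The wider Nlrp family was examined with lists of genes. Of 9 other oocyte-expressed Nlrp genes, 8 were tested, and 6 were lower than IVF in SCNT control and 6 in the latrunculin A control, against 6.87% and 6.58% of all genes. Their median log2 changes were -1.05 and -1.38, against 0.01 and 0.03 over all genes. Nlrp4c fell by 3.51 and 2.14 on the log2 scale, Nlrp9a by 1.61 and 1.69, and Nlrp9b by 1.20 and 1.67. In RK-701 embryos 1 of the 8 was lower than IVF (5.27% of all genes) and the median was -0.29. Against the latrunculin A control, 4 of the 8 were higher in RK-701 embryos (median 0.92, 1.73% of all genes higher), which were, named after their values were seen, Nlrp4e (1.69), Nlrp4g (1.74), Nlrp9a (1.52) and Nlrp9b (1.05). A366 embryos had 5 of the 8 lower than RK-701 embryos (median -1.49, 4.1% of all genes lower). Several of these genes are near-identical copies, so uniquely mapped reads may undercount them. Their summed level was 1036 to 1252 TPM in IVF, 853 to 1292 TPM in RK-701 and 407 to 716 TPM in all other libraries.

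**Figure D4:**
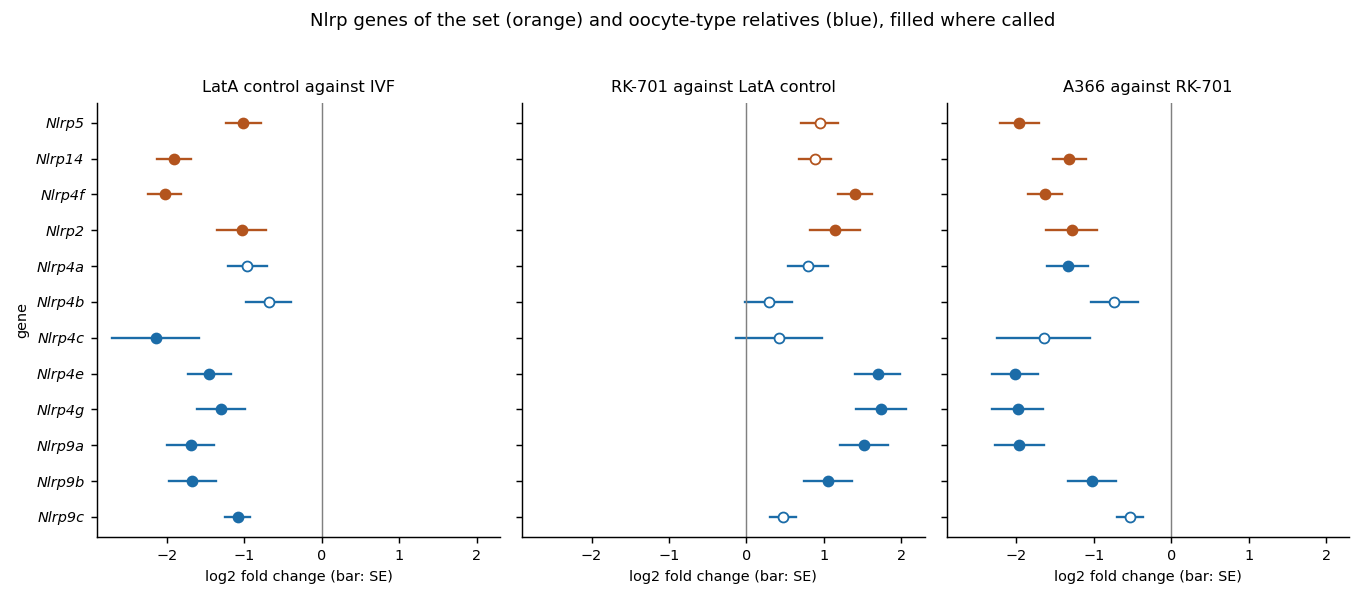
Log2 fold change of the 4 Nlrp genes of the set (orange) and of 8 other oocyte-expressed Nlrp genes (blue) in the latrunculin A control (LatA) against IVF, RK-701 against that control, and A366 against RK-701. Points are fitted changes, bars their standard errors, and filled points are calls. In the A366 comparison 4 genes of the set and 5 of the 8 relatives are called lower.

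Genes related to other members of the complex were examined in the same way. Of 6 listed inflammasome-type Nlrp genes, 3 were tested, and edgeR called 0 in either control against IVF or between A366 and RK-701, with 1 at an unadjusted p under 0.05 in each. Of 4 KH-domain relatives of Khdc3 and Ooep, edgeR called 0 in either control, with 2 and 1 at an unadjusted p under 0.05, and 0 between A366 and RK-701, where 3 passed the adjusted p, higher in A366, and missed the fold. Of 3 tested arginine deiminase genes of 4 listed, Padi4 was higher than IVF in both controls (log2 2.17, SE 0.71, and 2.24, SE 0.70), where 8.04% and 8.67% of all genes were. This change is near the floor. The 4 listed genes together summed to 1.44 to 2.56 TPM in IVF, 4.87 to 5.40 in SCNT control and 3.16 to 4.21 in latrunculin A control libraries. Of 5 TLE corepressor genes, edgeR called 0 in SCNT control, with 1 at an unadjusted p under 0.05, and 1 was lower in the latrunculin A control, where 6.58% of all genes were. Of the 5, 1 was called higher in A366 than in RK-701 embryos, where 3.95% of all genes were, and 2 passed the adjusted p. For the KH-domain and TLE counts by adjusted p alone, the share of all genes is not given here.

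Of 16 other messages stored in the oocyte, 15 were tested and 8 were lower than IVF in each control, against 6.87% and 6.58% of all genes, among them Zar1l (-3.45 and -2.83), Zar1 (-1.66 and -1.52) and H1foo, the oocyte linker histone (-1.26 and -1.80). In RK-701 embryos 3 of the 15 were higher than in the latrunculin A control (1.73% of all genes) and in A366 embryos 4 were lower than in RK-701 embryos (4.1% of all genes). The summed level of the 15 on autosomes was 23276 to 26446 TPM in IVF, 20939 to 23165 in SCNT control and 12484 to 17728 in latrunculin A control libraries. It was 15488 to 17467 TPM in RK-701, 14151 to 17819 in TSA and 16286 to 16583 in A366 libraries, all below IVF. The combinations of TSA with an inhibitor ranged from 19688 to 23314.5 TPM. Kdm4d libraries held 24141 to 24611 and Kdm3a libraries 28182 to 28612 TPM, so the sum was not lower than IVF in every group of clones. Of 10 genes of maternal mRNA decay, 1 was lower in SCNT control and 2 in the latrunculin A control, Btg4 being lower in both (-1.64 and -1.32), against the same 6.87% and 6.58% of all genes. The 10 summed to 2895 to 3282 TPM in IVF and 2466 to 3898 TPM in RK-701 libraries. They summed to 1474 to 1951 TPM in SCNT control, 1903 to 2062 in latrunculin A control and 1846 to 2050 in A366 libraries. By the adjusted p alone, 4 of the 10 were lower and 2 higher than IVF in each control. In the latrunculin A control, 10.2% of all genes were lower by that rule, and its other shares are not given here. Of the 7 markers of the 2-cell stage in the table, 3 were lower than IVF in each control and 3 in RK-701 embryos, where 5.27% of all genes were lower.

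Within the set, Nlrp14 and Nlrp4f had the most alike patterns over the 11 groups, with a root mean square difference of 0.21 between their centred mean log2(CPM + 1) values, followed by Nlrp5 and Nlrp4f with 0.26. Among 8437 other autosomal genes of at least 10 CPM, the nearest to Nlrp5 was 2610021A01Rik (0.12). Nearest to Nlrp14 were Ift43 (0.18) and Enpp2 (0.21), and to Nlrp4f Ccndbp1 (0.18) and AU016765 (0.19). Rab8b (0.15) and Ccdc90b (0.17) were nearest to Tle6, Cep85 and Tbc1d15 (0.13 each) to Padi6, and Arhgap20 (0.19) and Mcub (0.21) to Nlrp2. Hnrnpul2 (0.28) and Med30 (0.31) were nearest to Zbed3, and Tpt1 and Tmem123 (0.18 each) to Khdc3. These are descriptions over 11 group means from shared libraries.

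Ranked by mean level, neighbouring groups mostly could not be separated. For Nlrp5 the order was IVF, RK-701, TSA with A366, Kdm3a, Kdm4d, latrunculin A control, TSA with RK-701, TSA with UNC0638, SCNT control, TSA and A366, and libraries of neighbours overlapped at 8 of 10 steps, the exceptions being below RK-701 and below SCNT control. For Nlrp14 and Nlrp4f neighbours overlapped at 8 of 10 steps each, the exceptions being the steps below IVF and below RK-701. Ooep had 9 overlapping steps, Tle6 8, Zbed3 9, and Khdc3, Padi6 and Nlrp2 10 of 10.

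Reads on transposable element copies inside introns of Nlrp5 were also counted, as the table lists 52 such copies. They amounted to 4.03 to 6.68 CPM in IVF, 5.76 to 6.80 in RK-701, 1.27 to 1.66 in SCNT control and 2.14 to 3.80 CPM in latrunculin A control libraries. RK-701 lay within or above IVF and both controls lay below. Kdm3a libraries, at 4.13 to 6.03 CPM, and Kdm4d libraries, at 3.01 to 7.0 CPM, overlapped with IVF in these reads while their exonic Nlrp5 level did not. A single copy of the family MLTR14 held 569 of the 1124 reads, and whether the reads come from unspliced Nlrp5 RNA was not tested.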

How the data were processed

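RNA-seq was performed by the authors on 25 pools of late 2-cell embryos with SMART-Seq HT kits, which prime on poly(A), so messages without a tail are not captured. Per the study's methods, reads were trimmed with Trimmomatic and aligned to mm10 with STAR, keeping unique alignments with a mismatch limit of 0 relative to read length. IVF oocytes were C57BL/6N and SCNT oocytes BDF1, so reads over DBA2 differences can be lost unequally, and the part of this setting in the comparisons with IVF was not tested. The deposited values are raw counts per gene and per transposable element copy, made by the authors with featureCounts 1.6.2 without regard to strand. Of 55375 gene rows, 55134 had a symbol. The table also holds 1755056 element copies, which were used only inside introns of the set.

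Groups followed the labels. The counts were tested with edgeR 4.0.16 (quasi-likelihood, robust, TMM) in R 4.3.3, in 1 model over 25 libraries and 11 groups, on 25794 of 51146 genes on autosomes, those averaging 1 read or more per library. P-values were adjusted over all tested genes within each of 26 comparisons, and a call required adjusted p under 0.05 and a fold over 2. The 95% intervals and standard errors are of the fitted log2 change. Standard errors come from the fold change and its F statistic. The scripts were tested on simulated data. Tables and plots used Python 3.11.15 with pandas 2.3.3 and matplotlib 3.10.9. CPM is scaled by TMM and TPM is computed over autosomal gene rows from exonic length. Libraries of 6662727 to 21188688 reads gave Khdc3 at most 44 reads and every other gene of the set at least 136. The counting interval of Khdc3 covers counting error only.

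The alternatives were DESeq2 1.42.0, other scalings, filters, chromosomes, a replicate block, a fit on the compared libraries only, no fold limit, another reference group and leaving out each library. All 9 genes are described in every comparison. Genes of other lists are named where they were called in the same direction in both untreated controls against IVF, at most 3 per list and direction by size of change, and nearest genes are the 2 with the smallest difference of pattern for genes whose group means span more than 1 on the log2 scale. For Nlrp5, 1 of the 2 is not reported here. The genes of the set and the lists were chosen with earlier results of these data known.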

Additional observations from a re-analysis of the deposited data

Results flagged for a closer look

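Khdc3 had 1 IVF library, replicate 1, set apart from the other 3, at 1.72 CPM (10 reads) against 0.384 to 0.572 CPM. Such a gap is expected by chance in about 1 group in 20, and of the 9 genes this was the only IVF group that met it.

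The effects of A366 and RK-701, which share the latrunculin A control, differed in 5 of the 9 genes when the inhibitors were compared directly by edgeR. The differences of A366 from RK-701 were -1.96 for Nlrp5, -1.63 for Nlrp4f, -1.32 for Nlrp14, -1.29 for Nlrp2 and 4.23 for Khdc3, on the log2 scale. Libraries did not overlap in any of these 5 genes. They were picked by their calls in this same comparison, so this adds no further support, and the share of all genes that separated is not given here. The values of Nlrp2 and Khdc3 rest on A366 replicate 2, without which they were -1.11 and 3.40 and not called.

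An interaction of TSA and A366 was called in 2 genes, at 1.86 for Nlrp5 and 1.31 for Nlrp14. A366 alone gave no call by edgeR against the latrunculin A control in either gene. Both interaction calls were lost on leaving out any of several single libraries, as given above. Neither was called without latrunculin A control replicate 1, where they were 1.08 (adjusted p = 0.145) and 0.95 (adjusted p = 0.264). The 2 control libraries hold 177 and 72.9 CPM of Nlrp5.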

How the results depend on the processing

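Of 50 calls in the 234 tests of the 9 genes, 28 were kept under all 10 other settings and 29 under each of the 25 omissions of a library, and 0 reversed. Of the 184 tests without a call, 152 stayed so under every setting and 157 under every omission. Whether same-numbered libraries were paired was not settled. Correlations of same-numbered deviations ran from -0.63 to 0.30 over 24 comparisons, 8 above 0.1 and 6 below -0.1. Where a group has 2 libraries their deviations mirror each other, so such a comparison gives only a single correlation. With a replicate block, the genes higher than IVF fell from 2 to 1, those higher than their own control from 2 to 1 (RK-701 against its control from 2 to 1), and those above the sum of TSA and an inhibitor from 2 to 1. With only the compared libraries, the genes higher than their own control came to 1 (1 for RK-701) and those above the sum to 0. Without a fold limit, 4 were higher than their own control, all 4 with RK-701, and 7 were lower than IVF in the latrunculin A control. With library totals, 2 of the 4 lower genes were left in each untreated control against IVF, and mean Nlrp5 in IVF was 239 instead of 252 CPM. Genes lower than their own control came to 2 with DESeq2, 2 without a filter, 1 with a filter of 10 reads in 2 libraries and 1 with both untreated controls as the reference, against 0. Each of these 4 settings gave 1 lower gene for RK-701, Khdc3. Without a filter, 1 gene was higher in the latrunculin A control than in SCNT control and 2 lay below the sum of TSA and an inhibitor. On leaving out 1 library at a time, 33 to 42 lower and 1 to 3 higher results remained against IVF, 3 to 4 lower genes in SCNT control, 2 to 4 lower and 0 to 1 higher in the latrunculin A control, 1 to 3 higher and 0 to 1 lower for RK-701 against its control, 1 to 3 higher and 0 to 2 lower against own controls, 4 to 5 lower and 0 to 1 higher for A366 against RK-701 and between treatments, 0 to 1 higher between the untreated controls, and 0 to 4 above and 0 to 2 below the sum. A lone library left in a group was assumed to vary like the other groups. Where no value above shows it, the cause was not tested. The depth of Khdc3, at most 44 reads, limits what can be said of it.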

Other observations

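Reads on transposable element copies in the introns of Nlrp2 stood out in 1 library. TSA with UNC0638 replicate 2 had 129 such reads against 136 on the exons of Nlrp2, or 94.9%, while replicate 1 of the same group had 22, or 11.7% of its exonic reads. Of the 129, 65 lay on a single L1MdV_III copy at chr7:5345490-5349012. Over the other groups the reads came to between 1.32% and 17.5% of the exonic reads. In A366 replicate 2, element copies in introns of Nlrp4f held 110 reads, or 9.88% of the exonic reads of that gene, with 55 of them on a single B2_Mm1t copy.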
